A study of Mus musculus with 3 samples.

Results

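The 9 genes described here encode the core machinery of non-homologous end joining: Xrcc5 and Xrcc6 (the Ku80 and Ku70 subunits), Prkdc (the catalytic subunit of the DNA-dependent protein kinase), Dclre1c (the Artemis nuclease), Poll and Polm (DNA polymerases lambda and mu), and Xrcc4, Nhej1 (XLF) and Lig4 (DNA ligase IV). They are 9 of the 18118 protein-coding genes that had a value in the deposited table. The rule for choosing them was their place in the pathway and used no measured value, although earlier results of these data were known when the pathway was picked. The data were RNA-seq of total RNA from mouse cortical neurons, in 3 libraries of wild-type control cells (genotype WT, treatment CON). The 3 libraries formed 1 group, so there was no treated or mutant group to set them against, and the comparisons below are between genes inside each library. The labels gave no age, no days in culture and no strain, and nothing said whether the 3 libraries came from separate cultures, so their spread may be technical.

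End joining repairs a broken chromosome by fastening the broken ends directly to each other, without copying from a sister chromatid. The Ku ring slides onto each end and recruits the kinase, the nuclease and polymerases trim and fill the ends, and the ligase complex seals them. Since a sister chromatid exists only after DNA replication, a non-dividing cell such as a neuron relies on end joining for most breaks, and mouse embryos without Xrcc4 or Lig4 lose newborn neurons on a large scale.

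Levels are given in TPM, a measure in which read counts are divided by transcript length and then scaled to one library total. Each gene was given the value of its coding transcript with the most reads. Replicates 1, 2 and 3 had 33484319, 29591730 and 29085914 reads in total on these transcripts of all coding genes. Neuronal markers matched the label, with 6 of 6 pan-neuronal genes at 1 TPM or more and summed levels of 1809, 1857 and 1588 TPM, from Stmn2 at 687 ± 55.6 TPM (SD, n = 3) to Rbfox3 at 37.8 ± 1.46 TPM. Astrocyte markers were also present, 6 of 6, with sums of 410, 438 and 505 TPM, from Slc1a3 at 184 ± 19.1 TPM to Gfap at 16.6 ± 1.75 TPM. Of the oligodendrocyte lineage markers 4 of 6 passed 1 TPM, with sums of 63.0, 47.6 and 79.3 TPM, from Olig1 at 34.4 ± 2.91 TPM to Mobp at 0.018 ± 0.020 TPM. Of the proliferation markers 5 of 6 did, with sums of 21.9, 17.2 and 21.3 TPM, from Pcna at 8.36 ± 1.20 TPM to Ccnb1 at 0.612 ± 0.166 TPM. Microglial markers summed to 2.07, 2.09 and 1.09 TPM with 1 of 6 past 1 TPM (Aif1, 1.03 ± 0.43 TPM) and Tmem119 listed at 0. None of 4 endothelial markers passed it, with sums of 0.578, 0.818 and 0.557 TPM, Kdr highest at 0.374 ± 0.185 TPM and Cldn5 at 0. None of the 3 lymphoid markers with a value did either, with sums of 0.075, 0.086 and 0.050 TPM, Ptprc highest at 0.050 ± 0.014 TPM and Cd3e at 0. In such bulk RNA, fewer cells that express a gene and less RNA per cell cannot be told apart, and how much of any end joining gene's level came from the astrocytes or from dividing cells was not tested.

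All 9 genes were detected in all 3 libraries, and they spanned an 11.9-fold range of mean level. Xrcc4, the scaffold of the ligase complex, was the highest and Polm the lowest. In order of mean level of the transcripts used came Xrcc4 (7.97 ± 0.059 TPM, SD, n = 3), Xrcc5 (5.31 ± 0.33 TPM), Xrcc6 (3.72 ± 0.14 TPM) and Lig4 (3.59 ± 0.28 TPM). Poll (1.71 ± 0.23 TPM) and Prkdc (1.31 ± 0.17 TPM) formed the middle, and Nhej1 (0.794 ± 0.099 TPM), Dclre1c (0.743 ± 0.067 TPM) and Polm (0.667 ± 0.027 TPM) the low end. The places of Xrcc6 and Dclre1c depended on the transcript. By Xrcc6-201, at 5.73 TPM, Xrcc6 would stand above Xrcc5, and by Dclre1c-203, at 2.08 TPM, Dclre1c would stand above Poll and Prkdc. Of the 9 genes 6 had a mean of at least 1 TPM, beside 61.8% of all coding genes, a share near that of coding genes in general. With the coding transcript of highest TPM for each gene, Dclre1c passed too, for 7 of 9 beside 62.5%. The median level of the 9 genes was 1.71 ± 0.23 TPM, beside 2.90 ± 0.01 TPM over all coding genes. It is the value of Poll, the middle gene in every library. Xrcc4 stood above 68.4% of coding genes in level and Polm above 35.3%.

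Neighbours in this order differed beyond their ranges over the libraries in 5 of 8 steps. The largest step, from Lig4 to Poll, was 1.03 ± 0.23 on the log2(TPM + 0.1) scale (SD, n = 3), with every library on the same side. The steps from Xrcc4 to Xrcc5 (0.58 ± 0.08), Xrcc5 to Xrcc6 (0.50 ± 0.08), Poll to Prkdc (0.36 ± 0.30) and Prkdc to Nhej1 (0.65 ± 0.28) were also free of overlap. Xrcc6 and Lig4 overlapped (0.05 ± 0.16), as did Nhej1 and Dclre1c (0.08 ± 0.27) and Dclre1c and Polm (0.13 ± 0.17), so Dclre1c could not be placed among the 3 lowest genes. Nhej1, from 0.728 to 0.908 TPM, lay above Polm, from 0.641 to 0.694 TPM, in every library without overlap of these values. Their counting intervals overlapped in every library, however, as with 0.672 to 1.20 and 0.567 to 0.841 TPM in replicate 1.

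**Figure D1:**
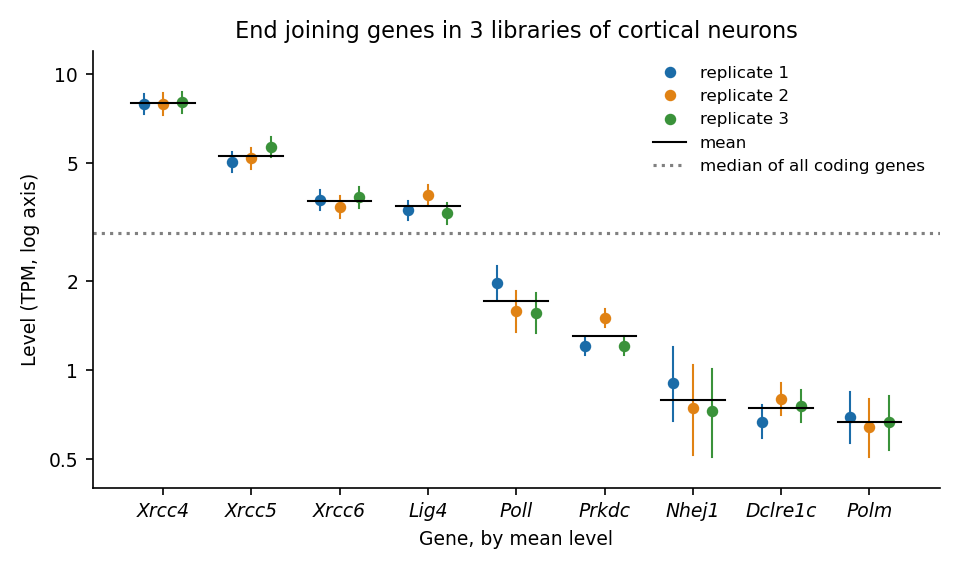
Level of each end joining gene in TPM on a log axis, with 1 point for each of the 3 libraries, its 95% Poisson counting interval as a vertical line, the mean as a black bar, and the median of all coding genes dotted. Xrcc4, Xrcc5, Xrcc6 and Lig4 lie above the dotted line at 2.90 TPM in every library and the other 5 genes below it.

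Replicate libraries were close to each other for these genes. The coefficient of variation over the 3 libraries ran from 0.74% for Xrcc4 to 13.5% for Poll, and for 4 of the 9 genes it was below the value that counting reads alone would give. Replicates 1, 2 and 3 each held the highest value of 3 of the genes, beside 28.4%, 38.4% and 33.1% of the coding genes above 0. The lowest value fell in replicate 1 for 4 genes, in replicate 2 for 2 and in replicate 3 for 3, beside 36.1%, 27.8% and 36% of those coding genes. No library was therefore high or low for the pathway as a whole.

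The sequence around the start sites of the higher genes is shown because 3 of them begin beside a gene read in the opposite direction, and Xrcc5 is shown as one that does not. The windows are RefSeq promoters on GRCm38.p6, from 250 bases before to 50 after the start, 5′ to 3′ on the gene's strand, and capitals mark matches on either strand to 4 motifs. These are the GC box, spelled GGGCGG, the element bound by NF-Y, spelled CCAAT, the core bound by ETS factors, spelled CCGGAAG, and the palindromic NRF1 motif, and no match overlaps another in these windows. They lie at chr13:90089559-90089858 on the minus strand (Xrcc4), chr15:82016119-82016418 on the plus strand (Xrcc6, at the start of Xrcc6-201), chr8:9977631-9977930 on the minus strand (the upstream start of Lig4) and chr1:72307171-72307470 on the plus strand (Xrcc5). Xrcc6-202, the transcript that gave the level of Xrcc6, starts upstream of its window, at chr15:82015519.
Xrcc4: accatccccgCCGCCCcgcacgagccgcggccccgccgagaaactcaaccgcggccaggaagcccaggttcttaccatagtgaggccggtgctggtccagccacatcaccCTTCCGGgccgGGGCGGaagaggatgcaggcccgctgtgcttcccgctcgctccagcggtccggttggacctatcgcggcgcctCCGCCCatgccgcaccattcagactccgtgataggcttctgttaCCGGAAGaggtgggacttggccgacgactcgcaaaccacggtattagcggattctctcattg
Xrcc6: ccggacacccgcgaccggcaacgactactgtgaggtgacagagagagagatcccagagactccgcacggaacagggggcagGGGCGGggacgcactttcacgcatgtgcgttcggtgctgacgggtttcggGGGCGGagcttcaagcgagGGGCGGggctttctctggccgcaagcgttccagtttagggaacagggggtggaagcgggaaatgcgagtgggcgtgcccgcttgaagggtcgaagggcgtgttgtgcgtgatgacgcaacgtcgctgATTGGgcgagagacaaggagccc
Lig4: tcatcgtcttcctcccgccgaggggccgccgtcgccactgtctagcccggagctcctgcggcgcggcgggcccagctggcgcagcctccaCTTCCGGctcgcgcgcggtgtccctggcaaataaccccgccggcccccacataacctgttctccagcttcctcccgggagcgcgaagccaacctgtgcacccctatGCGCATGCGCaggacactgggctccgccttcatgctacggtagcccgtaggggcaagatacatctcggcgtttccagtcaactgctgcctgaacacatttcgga
Xrcc5: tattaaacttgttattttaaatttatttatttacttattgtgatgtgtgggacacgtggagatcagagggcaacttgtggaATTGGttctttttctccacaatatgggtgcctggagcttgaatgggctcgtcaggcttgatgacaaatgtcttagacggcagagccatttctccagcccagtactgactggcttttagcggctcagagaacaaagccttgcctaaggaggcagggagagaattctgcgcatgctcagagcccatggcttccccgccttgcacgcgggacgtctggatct

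RefSeq held promoters for 7 of the 9 genes, 8 windows in all. The Nhej1 window, which is counted among the 8, lies 78587 bases from the start of Nhej1-201, the transcript measured here, and bears on another annotated start. The Xrcc4 window had 65.7% G and C and 31 CpG, that of Xrcc6 64.3% and 30, and the Lig4 window shown 66.3% and 30. Xrcc5 differed from these, with 48% G and C and 9 CpG, near the median of all 32851 promoters of that length (52.7% and 7 CpG). Over the 8 windows the medians were 62.3% G and C and 23 CpG. A GC box was found in 6 of the 8, beside 35.7% of all promoters, and CCAAT in 4, beside 37.4%. The ETS letters were found in 4 windows of 3 genes (Xrcc4, Dclre1c and both of Lig4), beside 8.86% of all promoters, and the NRF1 motif in both windows of Lig4, beside 4.60%. Neither TATAAA (13.6% of all promoters) nor the E2F letters TTTGGCGC (0.514%) occurred in any of the 8. These are matches of letters, and binding was not measured.

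Several of the genes begin back to back with another coding gene. Counting from the start of the transcript used, 2 of the 9 genes had a coding gene on the opposite strand that started within 1 kb upstream, beside 8.27% of all coding genes. Prkdc starts 489 bases from Mcm4, a subunit of the replicative helicase, and Poll 84 bases from Gm17018. Mcm4 was at 3.23, 2.89 and 3.74 TPM in the 3 libraries and Gm17018 at 13.3, 11.4 and 12.5 TPM, so both were above their end joining neighbour in every library. Within 300 bases there was 1 such gene (5.92% of coding genes), and within 5 kb there were 3 (12.5%). With the start of any coding transcript, within 1 kb in either direction, a definition chosen after the data were seen, the count was 5 of 9, beside 12.4% of coding genes. The pairs it added were Xrcc4 with Tmem167, a Golgi membrane protein, 41 bases apart, Lig4 with Abhd13, an alpha/beta hydrolase domain protein, 21 bases apart, and Xrcc6 with Desi1, a desumoylating isopeptidase, 206 bases apart. Tmem167 had 9.32 ± 0.56 TPM, Abhd13 12.1 ± 0.83 TPM and Desi1 31.3 ± 1.09 TPM (SD, n = 3), each above its partner in 3 of 3 libraries. These levels belong to the transcripts used for the genes, whereas the distance of each added pair involved the start of another transcript.

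The Ku heterodimer is the first protein at a broken end, and its subunits are obligate partners. Xrcc5 (ENSMUSG00000026187.8) lies at chr1:72307421-72394952 on the plus strand of GRCm38 and has 1 annotated transcript, Xrcc5-201, of 2555 bases in 21 exons. It held 660, 575 and 663 reads, or 5.04, 5.21 and 5.68 TPM, in replicates 1, 2 and 3. Replicate 3 was the highest, and its 95% Poisson counting interval of 5.26 to 6.13 TPM overlapped that of replicate 2 (4.79 to 5.65 TPM). Xrcc6 (ENSMUSG00000022471.14), at chr15:82015519-82040085 on the plus strand, held 635, 508 and 577 reads on Xrcc6-202, of 3296 bases in 13 exons. Its levels of 3.76, 3.57 and 3.83 TPM were below those of Xrcc5 in every library. Inside the libraries Xrcc5 exceeded Xrcc6 by 0.41, 0.53 and 0.56 on the log2(TPM + 0.1) scale, a mean of 0.50 ± 0.08 (SD, n = 3) or 1.42-fold in TPM + 0.1.

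The order of the Ku subunits depended on the transcript that stood for Xrcc6. Of its 11 annotated transcripts 5 are coding, and the one used, Xrcc6-202, contains every base of the shorter Xrcc6-201. The 1182 extra bases of Xrcc6-202, in the enlarged exon near its start, held 9, 4 and 7 reads, or 0.119 ± 0.036 TPM, while Xrcc6-201 held 626, 504 and 570 reads over 2114 bases. Reads were thus nearly absent from the extra stretch, and Xrcc6-201 stood at 5.73 ± 0.20 TPM (SD, n = 3). With that transcript the difference between Xrcc5 and Xrcc6 was −0.11 on the log2 scale, and with the coding transcript of highest TPM (Xrcc6-209, 7.0 ± 0.39 TPM) it was −0.39. Over the 11 transcripts the mean levels ran from 3.24 TPM, for Xrcc6-207, to 7.0 TPM, for Xrcc6-209. Exons of Desi1 lie opposite up to 344 bases of Xrcc6-202, all before the start of Xrcc6-201 and within the extra bases. At the level of Desi1-204 those 344 bases would have carried 513, 434 and 463 reads had strand been ignored, so the values of Xrcc6-202 there did not include reads of the opposite strand.

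Prkdc encodes the giant kinase that Ku holds at the break and that opens the way for end processing. Prkdc (ENSMUSG00000022672.8) spans 204.347 kb at chr16:15637889-15842235 on the plus strand, and Prkdc-201 has 12647 exonic bases in 86 exons, the longest transcript of the 9. It held the most reads of any of them in total, 780, 822 and 699, yet its level per length was 1.20, 1.50 and 1.21 TPM. Replicate 2 stood apart, with a 95% Poisson interval of 1.402 to 1.61 TPM against 1.12 to 1.29 and 1.12 to 1.30 TPM in the other libraries. Replicate 2 also had the lowest summed proliferation markers (17.2 TPM) and the lowest summed oligodendrocyte lineage markers (47.6 TPM), and their part in the Prkdc value was not tested. Prkdc was below Xrcc6 in every library, with differences of −1.57, −1.19 and −1.59 on the log2 scale and a mean of −1.45 ± 0.22 (SD, n = 3). With Xrcc6-201 in place of Xrcc6-202 the difference widened to −2.06. A second annotated transcript, Prkdc-202, which is classed as a retained intron, had 84, 65 and 69 reads and 0.506 ± 0.025 TPM. It shares 2523 of its 3063 bases with Prkdc-201.

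Dclre1c encodes Artemis, which the kinase activates to open hairpins and trim overhangs. The gene (ENSMUSG00000026648.18) lies at chr2:3424131-3464130 on the plus strand, and Dclre1c-201, of 7075 bases in 16 exons, held 243, 245 and 245 reads. Its levels of 0.670, 0.801 and 0.758 TPM were below those of Prkdc in every library, with differences of −0.76, −0.83 and −0.61 on the log2 scale and a mean of −0.73 ± 0.11 (SD, n = 3). Reads were not spread evenly over its transcripts. Dclre1c-203, of 2469 bases, ends early, in an enlarged exon at chr2:3452848-3454092 that gives it 894 bases not in Dclre1c-201, and it held 253, 223 and 243 reads, about as many as Dclre1c-201 on far fewer bases, for 2.08 ± 0.08 TPM. Dclre1c-201 itself ends in a long exon of 5440 bases at chr2:3458691-3464130. Dclre1c-204 shares the near part of that exon, and the 3247 bases of Dclre1c-201 not in it, most of them the far part, held 54, 53 and 57 reads, or 0.362 ± 0.033 TPM. Dclre1c-204 stood at 1.07 ± 0.10 TPM, so coverage was lower over those bases than over the rest of Dclre1c-201. With Dclre1c-203 for the gene, Dclre1c exceeded Prkdc by 0.64 on the log2 scale, so the direction of this pair also turned on the transcript.

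Over its 9 transcripts Dclre1c ran from 0.743 TPM to 2.39 TPM. Dclre1c-207 (2.36 ± 0.37 TPM) and Dclre1c-208 (2.39 ± 0.34 TPM), which cover only the first exons, and Dclre1c-209 (2.04 ± 0.18 TPM), which lies in the last exon of Dclre1c-203, were all near the level of Dclre1c-203. The first exons and the early last exon of Dclre1c-203 were thus covered at like depth, and the bases of Dclre1c-201 beyond Dclre1c-204 at a lower one. Dclre1c-205, the coding transcript of highest TPM (2.14 ± 0.10 TPM), was also near that level. It ends past Dclre1c-203, in the first 231 bases of the last exon of Dclre1c-201. Of its 679 bases 272 are not in Dclre1c-203, and how its reads divided between these and the shared bases was not tested. A read on bases that several transcripts of a gene share entered the value of each, so these values do not add up to a gene total. Exons of Suv39h2, a histone methyltransferase gene on the opposite strand, face 316 to 357 bases of Dclre1c-201. Of the 50-base stretches of Dclre1c-201, taken every 10 bases inside its exons, 98.3% occurred once in the genome, and for the transcripts used of the other 8 genes 100% did.

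**Figure D2:**
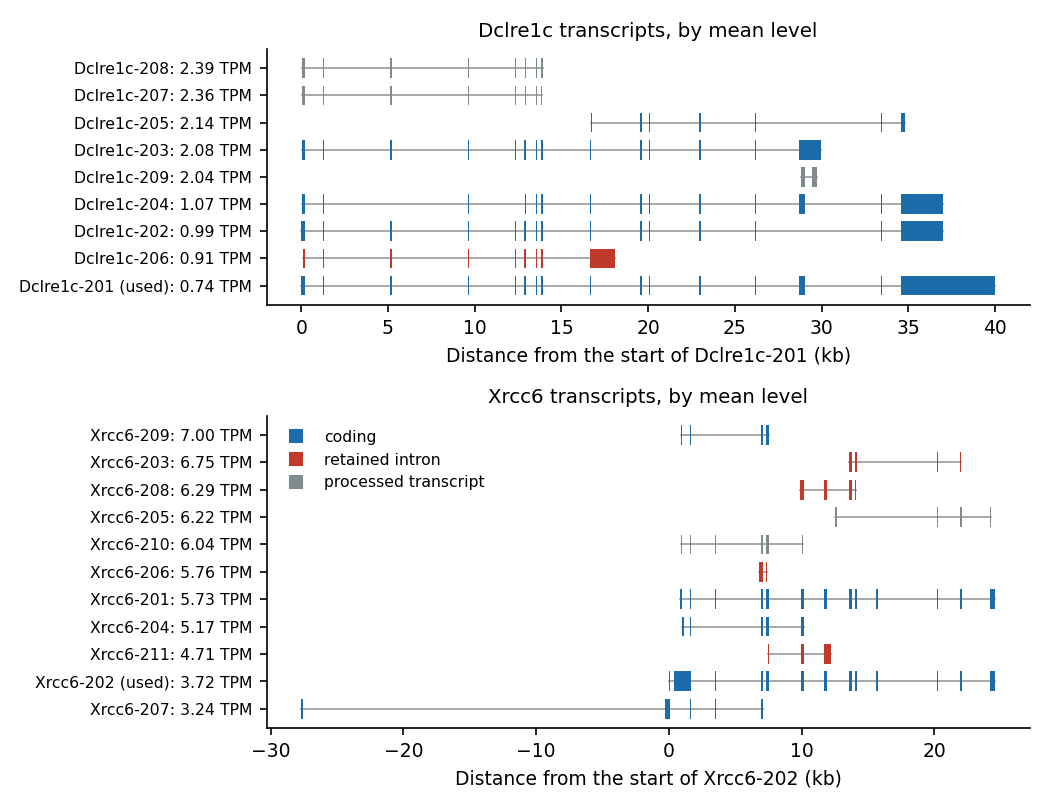
Exons (boxes) and introns (lines) of the annotated transcripts of Dclre1c (above) and Xrcc6 (below) against distance in kb from the start of the transcript used, ordered by mean TPM, which is given beside each name, and coloured by annotated class. Dclre1c-203, with an early last exon, has 2.08 TPM and Dclre1c-201, with the long distal one, 0.74 TPM, and Xrcc6-202 differs from Xrcc6-201 by the large exon near its start.

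Poll and Polm encode the related polymerases that fill gaps at aligned ends, polymerase lambda with a stronger need for a template than polymerase mu. Poll (ENSMUSG00000025218.6), at chr19:45552275-45560531 on the minus strand, has 1 transcript, Poll-201, of 2324 bases in 9 exons, with 235, 159 and 166 reads. Its levels were 1.97, 1.58 and 1.56 TPM, with replicate 1 the highest. Polm (ENSMUSG00000020474.11), at chr11:5827861-5838016 on the minus strand, had 104, 81 and 89 reads on Polm-201, of 2924 bases in 11 exons, or 0.694, 0.641 and 0.666 TPM. Poll exceeded Polm by 1.38, 1.18 and 1.12 on the log2 scale, a mean of 1.23 ± 0.14 (SD, n = 3) or 2.34-fold in TPM + 0.1. The other coding transcript, Polm-202, was at 0.687 ± 0.020 TPM and the 4 noncoding ones at 0.308 to 0.548 TPM. Summing all transcripts of a gene, which counts shared reads repeatedly, turned the direction to −0.80.

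Polb, the base excision repair member of the same polymerase family, was far above both. It had 26.7, 25.1 and 30.0 TPM in the 3 libraries, and Poll minus Polb was −3.92 ± 0.24 on the log2 scale, with Polb 15.2-fold higher in TPM + 0.1. Dntt, the lymphoid member of the family, which adds untemplated bases in V(D)J recombination, was listed at 0 in all 3 libraries.

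Xrcc4 holds the ligase at the break. The gene (ENSMUSG00000021615.13) spans 240.688 kb at chr13:89848921-90089608 on the minus strand, the longest of the 9, while Xrcc4-201 has only 1540 bases in 8 exons. It held 625, 529 and 565 reads, or 7.92, 7.95 and 8.03 TPM, so the 3 libraries hardly differed. The coefficient of variation was 0.74%, beside 4.18% from counting alone. The other coding transcripts, Xrcc4-203 (4.47 ± 0.62 TPM) and Xrcc4-204 (5.47 ± 0.65 TPM), are short and were highest in replicate 1. Xrcc4-202, annotated as a target of nonsense-mediated decay with a longer last exon, had 2.54 ± 0.09 TPM. Exons of Tmem167 face 112 bases of Xrcc4-201.

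Lig4 seals the break and is unstable without Xrcc4. It is compact, 6.304 kb at chr8:9970020-9976323 on the minus strand (ENSMUSG00000049717.9), and Lig4-201 has 4081 bases in 2 exons. It held 727, 689 and 631 reads, or 3.48, 3.91 and 3.38 TPM, highest in replicate 2. Its other transcript, Lig4-202, which starts upstream at the promoter shown, had 3.68 ± 0.14 TPM, within the spread of Lig4-201 (3.59 ± 0.28 TPM). It shares 2931 of its 3105 bases with Lig4-201, and reads on those bases entered both values. How much the upstream start was used was therefore not tested. Xrcc4 exceeded Lig4 in every library, by 1.17, 1.01 and 1.22 on the log2 scale, a mean of 1.13 ± 0.11 (SD, n = 3) or 2.19-fold in TPM + 0.1. The alternatives run on this pair kept its direction.

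Nhej1 encodes XLF, which pairs with XRCC4 to bridge the ends. The gene (ENSMUSG00000026162.7), at chr1:74967139-75046639 on the minus strand, has 1 transcript, Nhej1-201, of 1053 bases in 5 exons. Only 49, 34 and 35 reads fell on it, or 0.908, 0.747 and 0.728 TPM. The counting intervals were accordingly wide, 0.672 to 1.20, 0.517 to 1.04 and 0.507 to 1.01 TPM, and the 3 libraries were not distinguishable at this depth. Nhej1 was below Xrcc4 in every library, with differences of −2.99, −3.25 and −3.30 on the log2 scale and a mean of −3.18 ± 0.16 (SD, n = 3), with Xrcc4 9.06-fold higher in TPM + 0.1. Among the pairs of end joining genes compared this was the widest. Paxx, a later described relative of XRCC4 and XLF that also binds Ku, was at 24.5, 22.7 and 25.5 TPM, above Xrcc4 in all 3 libraries.

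**Figure D3:**
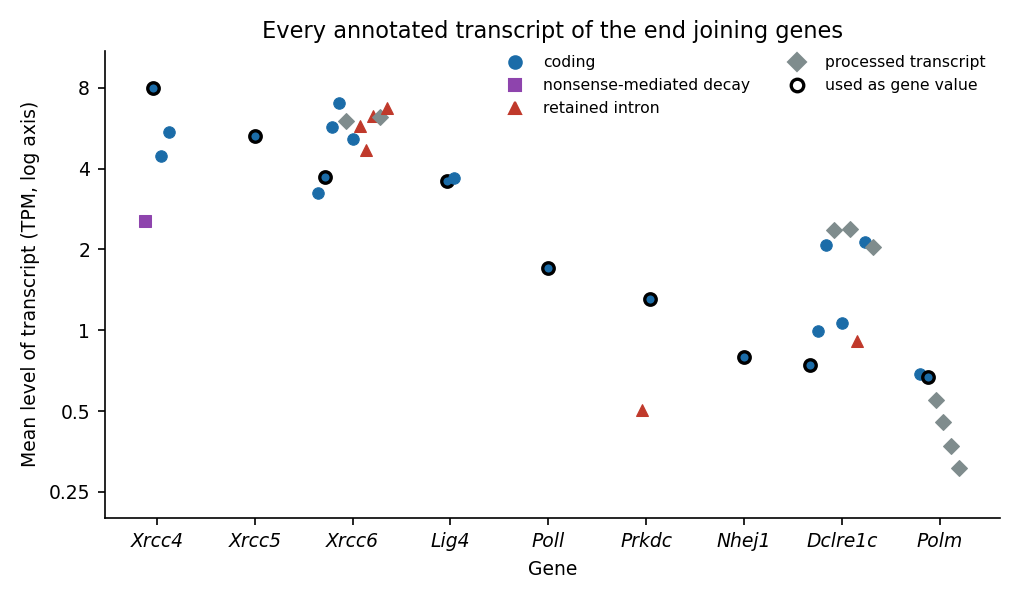
Mean level over 3 libraries, in TPM on a log axis, of all 37 annotated transcripts of the 9 genes, by annotated class (symbol and colour), with the transcript used for the gene ringed. Xrcc4 is represented by its highest transcript, while Xrcc6 and Dclre1c are represented by long transcripts that lie below most others of the gene.

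The ligases and end binders of the competing repair routes gave a scale for these levels. Lig3, the ligase of single-strand break repair and alternative end joining, was at 4.59, 4.62 and 4.56 TPM, and Lig4 minus Lig3 was −0.35 ± 0.10 on the log2 scale (SD, n = 3), with Lig4 lower in 3 of 3 libraries. Lig1, the replicative ligase, was at 4.08, 3.43 and 4.66 TPM, and Lig4 differed from it by −0.23, 0.18 and −0.45, so the pair had no common direction. Parp1, which senses breaks and competes with Ku for ends, was at 19.3, 21.3 and 22.3 TPM. Xrcc5 minus Parp1 was −1.96 ± 0.05 on the log2 scale, with Parp1 3.89-fold higher in TPM + 0.1. With the coding transcript of highest TPM, Lig4 minus Lig3 was −0.73 and Lig4 minus Lig1 −0.83.

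The 10 gene pairs and 4 differences of list medians were each tested by flipping the signs of the 3 libraries' differences (an exact permutation test, two-sided), and p-values were adjusted by the Benjamini-Hochberg method over these 14. With 3 libraries the smallest p such a test can give is 0.25, so no difference could pass 0.05. Of the 14 differences 12 kept 1 sign in all 3 libraries (exact p = 0.25, adjusted p = 0.292 each), and Lig4 minus Lig1 and the median difference from end resection did not (exact p = 0.50, adjusted p = 0.50 each).

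**Figure D4:**
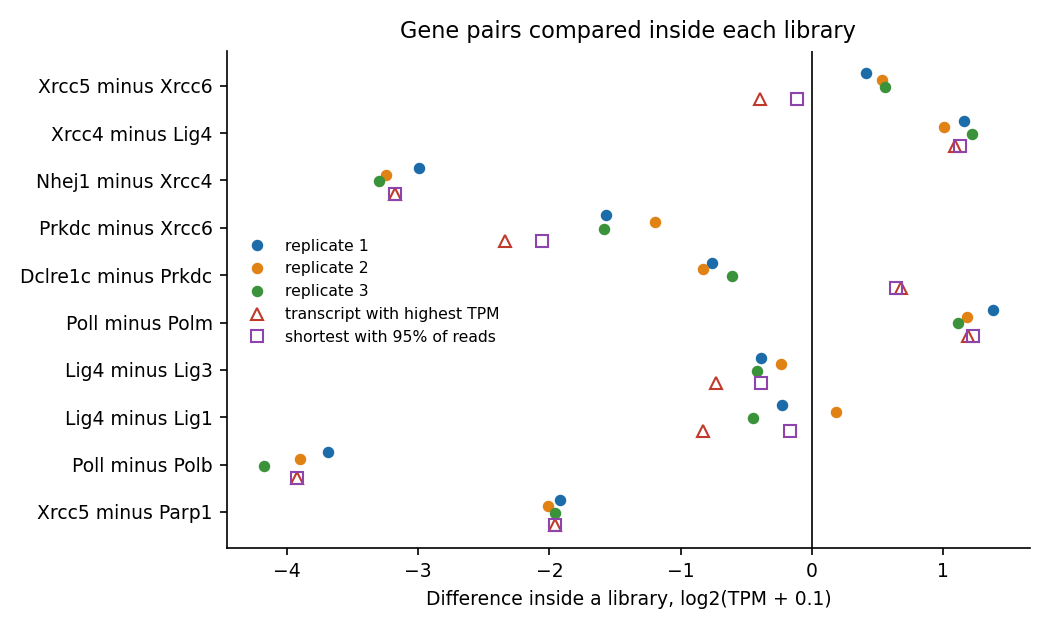
Difference between the genes of each pair inside a library, on the log2(TPM + 0.1) scale, with 1 point for each of the 3 libraries, and open symbols for the mean when a gene is given by its coding transcript of highest TPM (triangle) or the shortest with at least 95% of the most reads (square). Only Xrcc5 minus Xrcc6 and Dclre1c minus Prkdc have open symbols on the other side of 0 from all 3 of their points. Lig4 minus Lig1 has points on both sides of 0.

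Set against the other break repair pathways, the median of the end joining genes lay between those of signalling genes above and homologous recombination genes below. The pathway lists were taken from general knowledge of repair and are described by counts and medians. A list median is the value of its middle gene or genes, and for the end joining genes this was Poll in every library. Of the 7 alternative end joining genes 6 reached 1 TPM, with a median of 4.62 ± 0.04 TPM (SD, n = 3). Parp1 (20.96 ± 1.51 TPM) and Parp2 (10.3 ± 1.14 TPM), the break-sensing ADP-ribosyltransferases, led it, and Polq, the polymerase that defines that route, was lowest at 0.360 ± 0.041 TPM. The end joining median minus the median of that list was −1.39 ± 0.19 on the log2 scale, and −0.60 ± 0.12 among genes of at least 1 TPM. The abundant members of that list also serve base excision and single-strand break repair.

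All 11 break signalling and end protection genes with a value reached 1 TPM, with a median of 4.46 ± 0.79 TPM. The same gene was the middle one in every library, so this SD is the spread of a single gene. The highest were Trp53bp1 (13.3 ± 0.87 TPM), which shields ends from resection, and H2afx (11.3 ± 1.27 TPM), the histone marked around breaks, and the lowest was Shld2 (1.21 ± 0.11 TPM), a shieldin subunit. The end joining median minus theirs was −1.33 ± 0.25 on the log2 scale. Among genes of at least 1 TPM it was −0.27 ± 0.29 and no longer had 1 sign in all libraries (exact permutation p = 0.50). Of the 10 accessory factors 9 reached 1 TPM, with a median of 5.39 ± 0.08 TPM. Polb and Paxx (27.3 ± 2.51 and 24.2 ± 1.42 TPM) were the highest there, and Cyren, a regulator of the choice of repair route, the lowest at 0.318 ± 0.059 TPM.

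Resection genes, which cut ends back and so commit them to other routes, had a median of 1.53 ± 0.08 TPM, and 6 of 8 reached 1 TPM. Nbn (5.42 ± 0.59 TPM) and Rad50 (2.28 ± 0.27 TPM), both of the MRN complex, were highest and the nuclease gene Exo1 lowest at 0.224 ± 0.030 TPM. The end joining median, here the value of Poll, differed from theirs by 0.43, 0.04 and −0.02 on the log2 scale, not beyond the spread between libraries. It was above theirs in every library under 4 alternatives, by 0.28 ± 0.10 with the coding transcript of highest TPM, 0.50 ± 0.07 with the sum over transcripts, 0.41 ± 0.02 with the shortest transcript holding at least 95% of the most reads and 1.01 ± 0.08 among genes of at least 1 TPM. Each has an exact permutation p of 0.25, the smallest possible. Homologous recombination genes were lower, with 4 of 12 at 1 TPM or more and a median of 0.583 ± 0.013 TPM. Their highest members were Rad52 (3.75 ± 0.55 TPM) and Rad51d (1.69 ± 0.04 TPM), and the lowest was the recombinase paralog Rad51b (0.130 ± 0.048 TPM). The end joining median exceeded theirs by 1.398 ± 0.156 on the log2 scale (SD, n = 3), in 3 of 3 libraries. The nucleases and terminal transferase that lymphocytes add to end joining were near or at 0. Rag1 was at 0.126 ± 0.025 TPM, and Rag2 and Dntt were listed at 0. A floor of 3 reads, in the library where it is highest, would amount to 0.020 TPM for Rag2 and 0.033 TPM for Dntt.

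**Figure D5:**
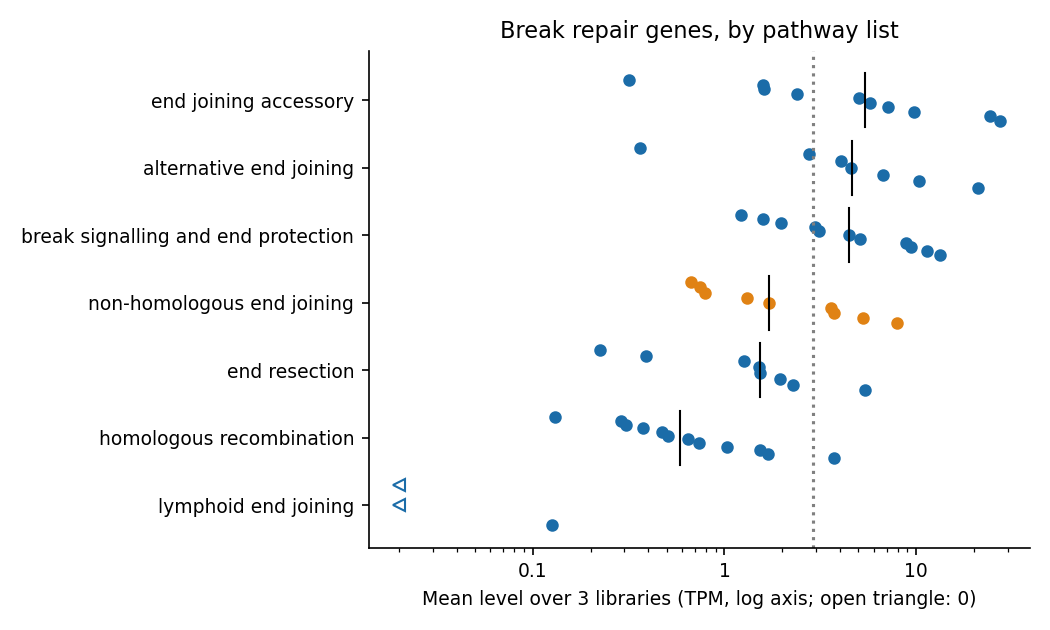
Mean level over 3 libraries in TPM on a log axis for each gene of the end joining pathway (orange) and of 6 other lists of break repair genes (blue), with the median of each list as a black bar, the median of all coding genes dotted, and genes listed at 0 as open triangles at the left edge. The median of the 9 end joining genes, 1.71 TPM, lies between those of break signalling (4.46 TPM) and homologous recombination (0.583 TPM).

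By level alone, each end joining gene had a near neighbour among the genes of these lists, measured as the root mean square difference of log2(TPM + 0.1) over the 3 libraries. The closest matches were Polm with Brca2 (0.084), Xrcc5 with Nbn (0.088), Prkdc with Shld2 (0.11) and Xrcc6 with Rad52 (0.13). Poll was nearest to Rad51d (0.14), Xrcc4 to Rnf8 (8.83 ± 0.88 TPM, 0.18), Nhej1 to Rad51c (0.739 ± 0.145 TPM, 0.18), Dclre1c to Brca2 (0.643 ± 0.023 TPM, 0.20) and Lig4 to Rif1 (3.12 ± 0.33 TPM, 0.25). Nearness here is likeness of level in 3 libraries of 1 group, and no correlation over so few libraries was computed. The matches of Xrcc6 and Dclre1c hold for the transcripts used, as their levels depended on that choice.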

How the data were processed

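The submitters deposited TPM values per transcript for 3 libraries, in a table of 84660 GENCODE M4 transcripts. Per the submitters' processing notes, reads were checked with FastQC 0.11.2, aligned to mm10 with STAR 2.5.3a and counted with featureCounts of Subread 1.4.6. The labels name the KAPA RNA HyperPrep kit.

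Transcript IDs without version were matched to GENCODE M21 (GRCm38): 83017 of 84660 (98.1%) matched, and the rest were not used. No column belonged to another sample. A gene's value was that of its coding transcript with the highest mean TPM times exonic length. Dividing that product by a constant per library gave whole reads (within 0.01) in all 3 libraries for 97.9% of the 69257 rows above 0 and for 37 of the 37 end joining transcripts. Exonic lengths were clipped to the deposited ends where only that gave whole reads. Intervals are 95% Poisson, and intervals and floors (3 reads) cover counting error only. No count test was run, since there is 1 group.

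Differences were taken inside libraries on log2(TPM + 0.1), which understates those of low genes, and tested with exact sign-flip permutation tests. Genes at 1 TPM or more were counted as expressed. Named genes were the 9 genes, their pair partners, the 2 highest and the lowest of each pathway list, the highest and lowest markers, opposite-strand neighbours and nearest genes in level. The rule for the members used no measured value, but members and lists were chosen with earlier results of these data known. Shld3 had no value and was not analysed here. Alternatives were the pseudocount, the transcript rule, the scaling, the minimum level and each library left out. The programs were Python 3.11.15, numpy 2.4.6, pandas 2.3.3, scipy 1.17.1 and matplotlib 3.10.9. The scripts were tested on simulated data.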

Additional observations from a re-analysis of the deposited data

How the results depend on the processing

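No paired analysis was possible because the 3 libraries form 1 group. Of 169 values recomputed under alternatives, 7 differences changed sign, and 8 medians or counts moved beyond the spread of libraries or 1.5 times. The other 154 kept the sign of their mean or their size, but some of them changed widely. With the sum over transcripts, Lig4 minus Lig3 went from −0.35 to −2.92, Lig4 minus Lig1 from −0.16 to −2.78, Xrcc5 minus Parp1 from −1.96 to −4.41 and Prkdc minus Xrcc6 from −1.45 to −4.99. Among genes of at least 1 TPM, the end joining median minus that of break signalling went from −1.33 to −0.27, minus alternative end joining from −1.39 to −0.60, and minus end resection from 0.15 to 1.01. The sign changes came with the transcript rule. Xrcc5 minus Xrcc6 became −0.39 with the coding transcript of highest TPM, −3.49 with the sum over transcripts and −0.11 with the shortest transcript holding at least 95% of the most reads, the last chosen after the data were seen. Dclre1c minus Prkdc became 0.68, 2.96 and 0.64 under the same rules, and Poll minus Polm −0.80 under the sum. The sum counts shared reads repeatedly. The end joining median of log2(TPM + 0.1), 0.85 as reported, was 1.43 with a pseudocount of 1, 1.16, 2.43 and 1.12 under those 3 transcript rules, and 1.91 among genes of at least 1 TPM. It was 3.0 after rescaling to nuclear coding genes, which raised the median of all coding genes from 1.58 to 3.76. Genes with an opposite-strand neighbour numbered 1 within 300 bases and 5 with any coding start. Of the 9 genes, 4 passed a minimum of 2 TPM, beside 54.9% of all coding genes, and 9 passed 0.5 TPM, beside 66.6%. At 1 TPM, 7 passed with the coding transcript of highest TPM (beside 62.5%) and 8 with the sum (67.2%). With the shortest transcript holding at least 95% of the most reads 7 passed (62.0%), and after rescaling 9 did (71.5%). Leaving out 1 library kept the sign of every mean difference, with the end joining median between 0.74 and 0.90. However, the end joining median minus that of end resection fell to 0.006 ± 0.042 without replicate 1. Lig4 minus Lig1 fell to −0.022 ± 0.290 without replicate 3, and in both cases the libraries left differed in sign. The depth of 34 to 49 reads limits Nhej1 most.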
